A study of Mus musculus with 6 samples.

Results

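The genes described here are 30 genes of branched-chain amino acid and ketone body breakdown, taken by symbol from a fixed list. All 30 were found among the 34745 genes of the deposited gene table, and all 30 passed the filter on low counts. RNA sequencing covered left ventricles of wild-type C57BL/6 males, mice of an inbred strain whose age is given as 8 weeks. The operation was transverse aortic constriction (TAC), a ligature on the aortic arch that raises the pressure the ventricle works against, or sham surgery, in which no ligature is placed, and tissue was taken 6 weeks later. Each group has 3 libraries, TAC 1 to 3 and Sham 1 to 3 by their labels. Whether each was made from its own mouse is not stated, so a p-value here reflects only the spread among these libraries, some of which may be technical.

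Leucine, isoleucine and valine are broken down in mitochondria. A transaminase first removes the amino group, the branched-chain keto acid dehydrogenase complex then removes a carboxyl group, and separate branches turn the products into acetyl-CoA, acetoacetate or propionyl-CoA, which enters the citric acid cycle as succinyl-CoA. Ketone bodies made by the liver are burned in the heart by oxidation of beta-hydroxybutyrate to acetoacetate, transfer of CoA from succinyl-CoA and cleavage to acetyl-CoA. The heart uses both routes, and Klf15, a zinc-finger transcription factor, is known to regulate several of the amino acid genes there.

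The direction of every difference below is that of the labels, and 3 markers of pressure load lay against them. Nppa, the gene of atrial natriuretic peptide, which is known to be raised in the overloaded ventricle, had 92.3, 64.3 and 95.2 CPM (counts scaled to library size) in TAC 1, 2 and 3. It had 773, 1895 and 595 CPM in Sham 1, 2 and 3. Acta1, skeletal actin, was 9.41-fold higher in the Sham-labelled libraries (adjusted p = 0.0448). Nppb, which encodes brain natriuretic peptide, averaged 83.6 against 252 CPM without passing the test (adjusted p = 0.191). Its groups barely parted, with 137.7 CPM in TAC 1 and 137.9 CPM in Sham 1, and Sham 2 was the highest library at 420 CPM. Whether the labels of the 2 groups are exchanged was not tested, and an exchange would reverse every direction below. The groups are therefore called TAC-labelled and Sham-labelled throughout. Total gene counts ran from 17399510 to 28401399 per library, and the 30 genes together took 0.274% to 0.403% of them.

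Most of the 30 genes had a higher estimate in the TAC-labelled libraries, by a modest amount, while Bcat1, Abat and Bdh1 stood apart with a lower one. 27 of the 30 (90%) had a positive log2 difference, labelled TAC minus labelled Sham, against 50.9% of all 15198 genes tested. The median log2 difference was 0.40 over the 30 genes and 0.01 over all genes tested. At an adjusted p under 0.05 in edgeR's quasi-likelihood test, which 1.43% of all genes passed in either direction, 2 of the 30 (6.67%) passed toward the TAC-labelled libraries, Mccc1 and Aldh9a1, where 0.322% of all genes did. None passed toward the Sham-labelled ones, where 1.11% of all genes did; at an unadjusted p under 0.05, 18 passed toward the TAC-labelled libraries and 3 toward the Sham-labelled ones, against 9.56% and 11.4% of all genes. DESeq2 called 6 (Bckdhb, Ppm1k, Mccc1, Mccc2, Acadsb and Aldh9a1) and 3 (Bcat1, Abat and Bdh1) of the 30, against 2.98% and 4.58% of the genes it tested. In 17 of the 30 every TAC-labelled library lay above every Sham-labelled library, against 13.4% of all genes tested, and in 3 the order was the opposite, against 13.6%. In whole tissue, fewer cells of a type and less RNA per cell cannot be told apart. These genes share cells and pathways and do not vary independently, so the counts describe the list and are not a test of it. Both calls were lost without any 1 of TAC 1, TAC 2, TAC 3 or Sham 2, that of Mccc1 also without Sham 3 (adjusted p = 0.130) and that of Aldh9a1 also without Sham 1 (0.0634). Without Sham 1, Bcat1 and Mccc2 passed beside Mccc1.

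**Figure D1:**
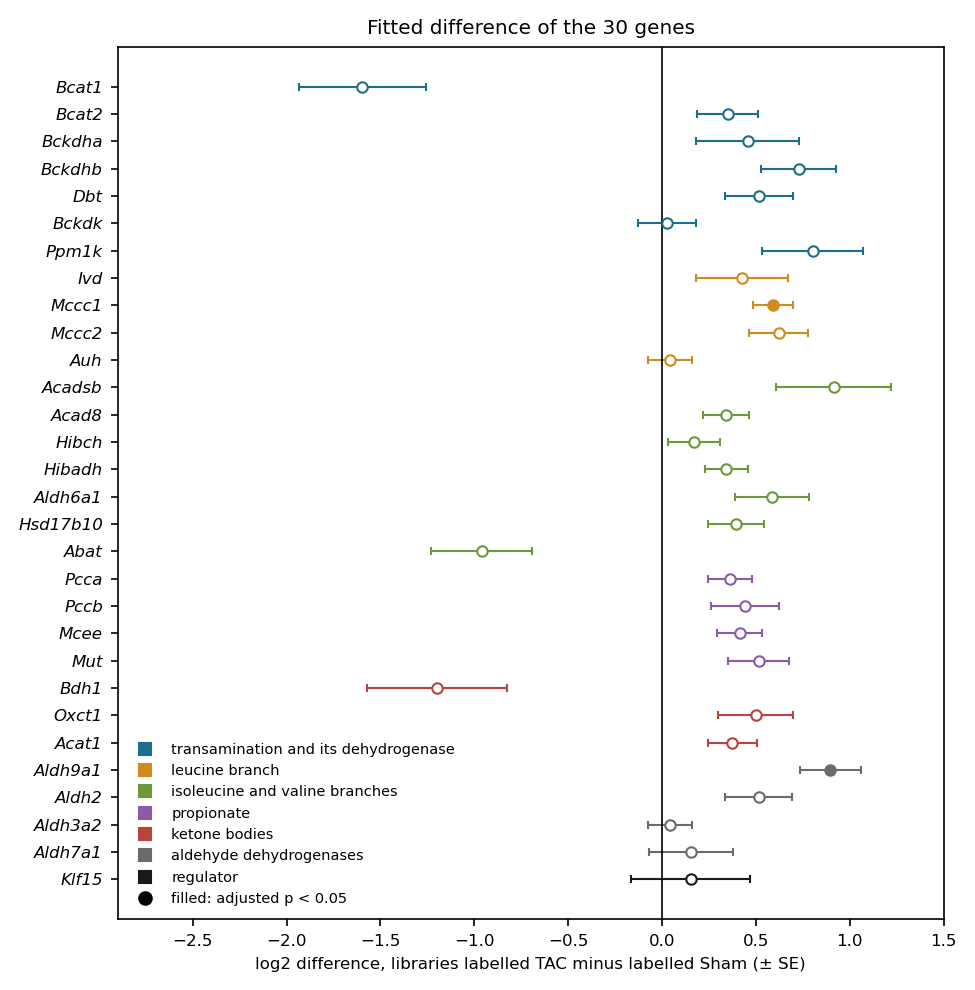
Fitted log2 difference of each of the 30 genes (horizontal axis, labelled TAC minus labelled Sham, bars ± SE), coloured by role, with filled points at an adjusted p under 0.05. Bcat1, Abat and Bdh1 lie left of 0 at -1.60, -0.96 and -1.2, and the filled points are Mccc1 and Aldh9a1.

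The stretches of DNA upstream of the 4 genes with the smallest p and of Klf15 are shown as 1 of the places where factors such as Klf15 could bind. They are the 250 bases before the RefSeq start (GRCm38.p6), 5′ to 3′ of the gene, and capitals mark CACCC, a motif bound by Klf-family factors, or its reverse complement GGGTG.
Mccc1, chr3:36000679-36000928, minus strand: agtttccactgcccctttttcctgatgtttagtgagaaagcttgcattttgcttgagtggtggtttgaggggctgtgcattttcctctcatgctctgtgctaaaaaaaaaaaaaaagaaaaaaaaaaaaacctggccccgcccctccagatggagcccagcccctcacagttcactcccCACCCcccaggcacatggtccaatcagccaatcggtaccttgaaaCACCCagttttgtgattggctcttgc
Mccc2, chr13:100015640-100015889, minus strand: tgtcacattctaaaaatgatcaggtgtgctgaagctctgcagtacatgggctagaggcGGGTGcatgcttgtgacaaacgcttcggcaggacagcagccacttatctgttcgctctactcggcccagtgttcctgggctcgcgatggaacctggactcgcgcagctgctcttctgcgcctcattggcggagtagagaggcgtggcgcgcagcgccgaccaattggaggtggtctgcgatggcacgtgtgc
Aldh9a1, chr1:167349741-167349990, plus strand: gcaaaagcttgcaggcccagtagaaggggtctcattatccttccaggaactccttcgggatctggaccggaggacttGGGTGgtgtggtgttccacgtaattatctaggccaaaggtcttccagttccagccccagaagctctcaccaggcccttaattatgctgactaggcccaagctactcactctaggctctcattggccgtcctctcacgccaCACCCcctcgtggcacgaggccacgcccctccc
Bcat1, chr6:145076158-145076407, minus strand: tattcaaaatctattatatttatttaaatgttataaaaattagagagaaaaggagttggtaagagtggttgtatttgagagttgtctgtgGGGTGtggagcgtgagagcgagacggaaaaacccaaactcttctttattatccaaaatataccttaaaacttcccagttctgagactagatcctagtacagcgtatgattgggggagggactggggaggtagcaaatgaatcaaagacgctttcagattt
Klf15, chr6:90462326-90462575, plus strand: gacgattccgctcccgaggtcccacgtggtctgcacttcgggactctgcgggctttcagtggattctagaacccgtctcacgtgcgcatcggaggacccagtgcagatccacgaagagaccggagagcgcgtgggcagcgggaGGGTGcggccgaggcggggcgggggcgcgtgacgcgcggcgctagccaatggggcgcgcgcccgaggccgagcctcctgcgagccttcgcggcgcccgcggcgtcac
RefSeq windows were matched by symbol for 24 of the 30 genes, and 16 of these (66.7%) held CACCC on either strand. The share over all 32851 windows of the same length was 52%. The windows of the matched genes had a median GC content of 57.4%, and all windows one of 52.4%. Mccc1 and Aldh9a1, higher in the TAC-labelled libraries, held the motif at 2 places each. Mccc2, also with a positive estimate, and Bcat1, with a negative one, held it at 1 place each. Aldh3a2, with a log2 difference of 0.04, held it at 3 places. Ppm1k and Acadsb, with 0.80 and 0.91, did not hold it, and neither did Bdh1, with -1.2. Only the windows of Bcat1 and Bdh1 belonged to matched genes with a negative estimate, too few to compare directions. Whether the number of places goes with the differences was not tested. TCAAGGTCA, the site of oestrogen-related receptors, was in none of the 24 windows and in 0.387% of all. A match is a description of the letters and does not show binding.

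Levels per gene length, in deposited FPKM (counts scaled by gene length and by library size), spanned a wide range. The ketone gene Oxct1 was the most abundant of the 30 in both groups, at 193 ± 50.8 FPKM in the TAC-labelled libraries (SD, n = 3) and 144 ± 14.2 in the Sham-labelled ones. Acat1 followed at 93.9 ± 13.5 and 75.7 ± 6.57 FPKM, and Aldh6a1 at 76.3 ± 18.6 and 53.0 ± 9.48. Bcat1 was the least abundant in both, at 0.113 ± 0.018 and 0.361 ± 0.139 FPKM. The order of levels was much alike in the groups, and the gene that changed place most was Bdh1, which ranked 15 of 30 in the TAC-labelled libraries and 5 of 30 in the Sham-labelled ones.

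**Figure D2:**
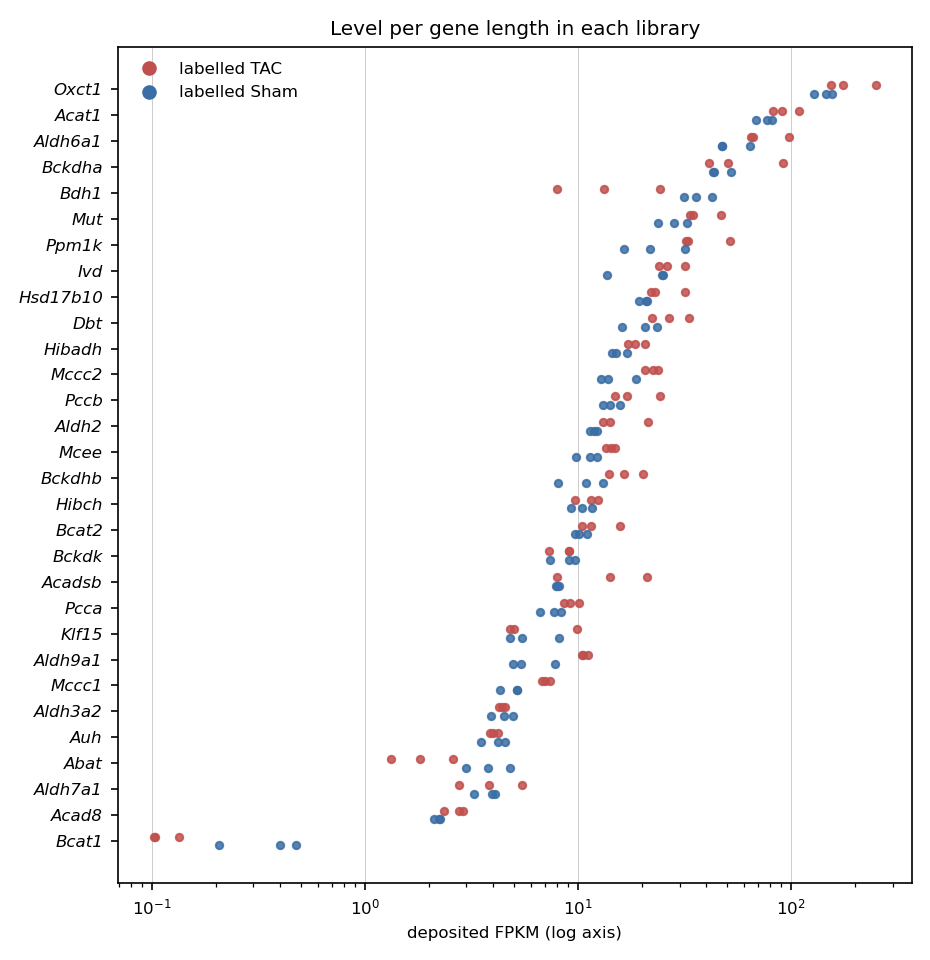
Deposited FPKM of each gene in each library (horizontal log axis, 1 point per library, red labelled TAC, blue labelled Sham), ordered by the mean of the Sham-labelled libraries. Oxct1 is at the top and Bcat1 at the bottom, and the points of Bdh1 labelled TAC lie left of its points labelled Sham.

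Transamination is carried out by Bcat2 in mitochondria and by Bcat1 in the cytosol. Bcat1 (chromosome 6, 144993835 to 145076184 on GRCm38, as all gene coordinates here) had 1.21, 1.17 and 1.53 CPM in libraries 1, 2 and 3 with the TAC label and 2.30, 4.49 and 5.05 CPM in Sham libraries 1, 2 and 3, the order used for all values by library below. The groups did not overlap, and the fitted level was 3.02-fold higher in the Sham-labelled libraries, short of the threshold (log2 difference -1.60, SE 0.34, adjusted p = 0.0643). These levels rest on 23 to 127 counts per library, and the difference was -1.06 on the log2(FPKM + 0.1) scale and -0.28 on the log2(FPKM + 1) scale, where a low gene's change is understated. Bcat2 had 54.2, 48.5 and 72.0 CPM against 49.6, 45.9 and 41.6 CPM, and its groups overlapped (log2 difference 0.35, SE 0.16, adjusted p = 0.267, and 0.17 without TAC 3). A ratio of FPKM values within a library does not depend on how libraries are scaled. Bcat1 stood at 0.00903, 0.00976 and 0.00857 of Bcat2 in the TAC-labelled libraries and at 0.0187, 0.0395 and 0.0491 of it in the Sham-labelled ones. The mean log2 ratio was 1.86 lower in the TAC-labelled libraries (log2 difference -1.86, exact two-sided permutation test, p = 0.1, n = 3 per group), and 0.1 is the smallest p that 3 against 3 allows. This permutation p was 0.233 when adjusted over the 7 ratios compared. Bcat1 and Bcat2 had estimates of opposite sign, so their ratio differs by more than either gene by construction.

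The keto acid dehydrogenase complex is built of a decarboxylase with alpha and beta subunits (Bckdha and Bckdhb) and an acyltransferase core (Dbt). Bckdhb had 36.8, 42.2 and 51.5 CPM in the TAC-labelled libraries and 32.6, 20.4 and 25.9 CPM in the Sham-labelled ones, so that every TAC-labelled library lay above every Sham-labelled library. Its log2 difference was 0.73 (SE 0.20, adjusted p = 0.109). Dbt (log2 difference 0.52, adjusted p = 0.169) and Bckdha (0.46, adjusted p = 0.382) had positive estimates with overlapping groups. That of Bckdha rested on library TAC 3, where it had 187 CPM against 82.5 to 106 in the other 5, and was 0.06 without that library. The ratio of Bckdhb to Bckdha overlapped between the groups (log2 difference 0.36, exact permutation p = 0.4, and 0.13 without TAC 2 or 0.21 without Sham 2).

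The complex is switched off by the kinase Bckdk, which phosphorylates the alpha subunit, and switched on by the phosphatase Ppm1k. Bckdk had 58.6, 46.5 and 56.9 CPM in the TAC-labelled libraries and 59.2, 56.4 and 43.5 CPM in the Sham-labelled ones. The ranges nearly coincided, with a log2 difference of 0.03 (SE 0.15, adjusted p = 0.942) whose sign changed under several alternatives. Ppm1k had 215, 209 and 330 CPM against 198, 104 and 130 CPM, a fitted 1.74-fold (log2 difference 0.80, SE 0.27, adjusted p = 0.156). Its groups did not overlap, although library Sham 1 came close to TAC 1 and TAC 2. Without library TAC 3 the log2 difference of Ppm1k was 0.56. Within libraries the kinase stood at 0.278, 0.227 and 0.176 of the phosphatase in FPKM in the TAC-labelled ones and at 0.305, 0.551 and 0.341 in the Sham-labelled ones. These ratios did not overlap, and the mean log2 ratio differed by -0.79 (exact permutation p = 0.1, 0.233 when adjusted over the 7 ratios compared).

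In the leucine branch, Ivd oxidises isovaleryl-CoA, the biotin enzyme made of Mccc1 and Mccc2 adds a carboxyl group, and Auh adds water. Mccc1 (chromosome 3, 35959312 to 36000678), the biotin-carrying subunit, had 93.7, 95.2 and 98.9 CPM in the TAC-labelled libraries and 68.0, 57.7 and 65.4 CPM in the Sham-labelled ones. The means were 95.9 ± 2.67 and 63.7 ± 5.37 CPM (SD, n = 3), and the gene was 1.51-fold higher in the TAC-labelled libraries (log2 difference 0.59, SE 0.10, adjusted p = 0.0459). Over the 14 alternatives its log2 difference stayed between 0.45 and 0.64, and it was past the threshold in 5 of them. Mccc1 overlaps Gm43080, Mccc1os and Gm15952 in the deposited coordinates, with means of 186, 43.8 and 7.5 counts per library against 1668 for Mccc1, and without a stated strand setting their reads cannot be told apart in the shared stretch.

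Mccc2, the other subunit, had 45.4, 49.1 and 50.7 CPM against 39.1, 27.5 and 27.8 CPM. Its groups did not overlap and its estimate was as large as that of its partner, with a wider spread, and it missed the threshold (log2 difference 0.62, SE 0.16, adjusted p = 0.0975). The ratio of Mccc1 to Mccc2 overlapped between the groups, with a log2 difference of -0.05 (exact permutation p = 0.7) whose sign turned without Sham 3. Ivd had a log2 difference of 0.42 (adjusted p = 0.368, and 0.17 without Sham 3) and Auh of 0.04 (adjusted p = 0.867, with a sign that changed under several alternatives), both with overlapping groups.

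The isoleucine and valine branches use the acyl-CoA dehydrogenases Acadsb and Acad8, the hydrolase Hibch and the dehydrogenases Hsd17b10, Hibadh and Aldh6a1. Of the 7 genes in this group, which includes Abat, 5 lay higher in all TAC-labelled libraries (13.4% of all genes tested did), 1 lay lower (13.6% did) and Hibch overlapped, and none passed the test. Hibadh, which oxidises hydroxyisobutyrate in valine breakdown, had 197, 210 and 229 CPM against 185, 160 and 158 CPM (log2 difference 0.34, SE 0.11, adjusted p = 0.155). Aldh6a1, which turns methylmalonate semialdehyde into propionyl-CoA, had 230, 222 and 329 CPM against 211, 159 and 150 CPM, a fitted 1.5-fold (log2 difference 0.59, adjusted p = 0.155, and 0.38 without TAC 3). Both showed a narrow gap between the groups. Acadsb, of isoleucine breakdown, had the largest positive estimate of the 30 genes at 0.91 (SE 0.31, adjusted p = 0.158), and it came mainly from a pair of libraries. It stood at 178, 65.9 and 116 CPM in the TAC-labelled libraries and at 65.5, 64.1 and 61.2 CPM in the Sham-labelled ones, so TAC 2 lay level with the Sham-labelled libraries. Without library TAC 1 the log2 difference was 0.52.

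Abat (chromosome 16, 8513429 to 8621568), the mitochondrial transaminase of the transmitter GABA that also acts on products of valine and pyrimidine breakdown, ran the other way. It had 18.0, 13.0 and 25.0 CPM in the TAC-labelled libraries and 45.6, 36.5 and 27.0 CPM in the Sham-labelled ones. The groups did not overlap, although TAC 3 and Sham 3 lay close together, and the fitted level was 1.95-fold higher in the Sham-labelled libraries (log2 difference -0.96, SE 0.27, adjusted p = 0.114).

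All 4 genes that carry propionyl-CoA to succinyl-CoA lay higher in every TAC-labelled library than in any Sham-labelled one, an order that 13.4% of all genes tested had, and none passed the test (adjusted p from 0.124 to 0.220). They are Pcca and Pccb, the subunits of the biotin enzyme propionyl-CoA carboxylase, the epimerase Mcee and the cobalamin-dependent mutase Mut. Mcee had 25.1, 26.1 and 27.0 CPM against 21.7, 17.7 and 19.3 CPM (log2 difference 0.41, SE 0.12). Mut had 129, 131 and 174 CPM against 118, 87.3 and 98.0 CPM (log2 difference 0.51, SE 0.16). The estimates of the 4 were close to each other, from 0.36 to 0.51. The estimate of Pccb went from 0.44 to 0.23 without TAC 3, and its level in TAC 1 (60.8 CPM) barely cleared that in Sham 1 (60.6 CPM). The ratio of Pcca to Pccb overlapped between the groups (log2 difference -0.06, exact permutation p = 0.7), with a sign that turned without TAC 3 or Sham 3.

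The 3 ketone genes split. Bdh1 (chromosome 16, 31422280 to 31458901), which oxidises beta-hydroxybutyrate, had 161, 86.0 and 51.0 CPM in the TAC-labelled libraries and 268, 228 and 188 CPM in the Sham-labelled ones. Every Sham-labelled library lay above every TAC-labelled library, and the fitted level was 2.30-fold higher there, short of the threshold, with a wide spread among the TAC-labelled libraries (log2 difference -1.2, SE 0.37, adjusted p = 0.137). Leaving out 1 library moved the estimate from -1.73 (without TAC 1) to -0.88 (without TAC 3). Oxct1, which activates acetoacetate with CoA, had 1233, 849 and 734 CPM against 729, 608 and 657 CPM, and Acat1, the thiolase that cleaves acetoacetyl-CoA, had 403, 358 and 467 CPM against 342, 293 and 311 CPM. Both lay higher in all TAC-labelled libraries, Oxct1 with a log2 difference of 0.50 (SE 0.20, adjusted p = 0.209; 0.25 without TAC 1) and Acat1 with 0.37 (SE 0.13, adjusted p = 0.169).

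With estimates of opposite sign for Oxct1 and Bdh1, their ratio differs by more than either gene by construction. Oxct1 stood at 10.3, 13.2 and 19.3 times the FPKM of Bdh1 in the TAC-labelled libraries and at 3.64, 3.58 and 4.68 times in the Sham-labelled ones. The mean log2 ratio was 3.79 ± 0.46 against 1.98 ± 0.22 (SD, n = 3), a difference of 1.81 (exact permutation p = 0.1, 0.233 adjusted over the 7 ratios), and between 1.57 and 2.02 when 1 library was left out. Of the 7 ratios, those of Bcat1 to Bcat2, Bckdk to Ppm1k and Oxct1 to Bdh1 did not overlap between the groups.

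**Figure D3:**
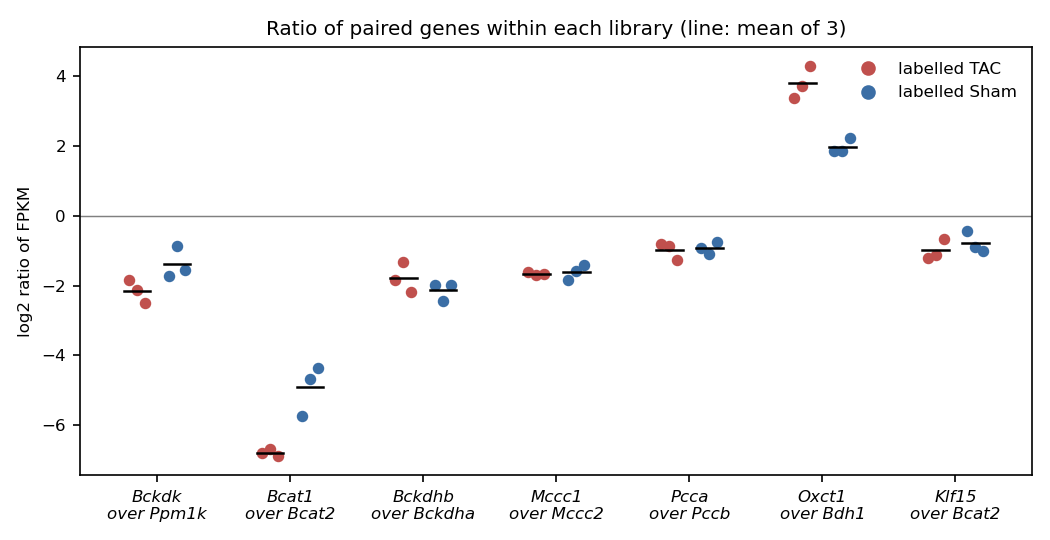
Log2 ratio of the FPKM values of paired genes within each library (vertical axis, red labelled TAC, blue labelled Sham, 1 point per library, lines at the mean of 3). The groups part for Bckdk over Ppm1k, Bcat1 over Bcat2 and Oxct1 over Bdh1, and the subunit pairs Mccc1 over Mccc2 and Pcca over Pccb overlap with differences of -0.05 and -0.06.

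Among the 4 aldehyde dehydrogenases listed here apart from these branches, Aldh9a1 passed and Aldh2 lay higher in every TAC-labelled library. The KEGG terms in the authors' annotation, described below, include all 4. Aldh9a1 (chromosome 1, 167349991 to 167368532), which oxidises trimethylaminobutyraldehyde on the way to carnitine, had 49.4, 46.2 and 44.6 CPM in the TAC-labelled libraries and 22.7, 21.3 and 31.4 CPM in the Sham-labelled ones. It was 1.86-fold higher in the TAC-labelled libraries (46.7 ± 2.49 against 25.1 ± 5.47 CPM, SD, n = 3; log2 difference 0.90, SE 0.16, adjusted p = 0.0480), and between 0.75 and 1.09 on the log2 scale over the 14 alternatives, with 5 of them past the threshold. Aldh2, which clears acetaldehyde and aldehydes from lipid peroxidation, had 99.7, 90.9 and 145 CPM against 76.4, 80.6 and 78.2 CPM (log2 difference 0.51, SE 0.18, adjusted p = 0.164, and 0.28 without TAC 3). Aldh3a2, the fatty aldehyde dehydrogenase, and Aldh7a1, of lysine breakdown, overlapped between the groups with log2 differences of 0.04 and 0.15, and both changed sign under some alternatives. Aldh7a1 overlaps Phax, which averaged 303 counts per library against its own 626.

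**Figure D4:**
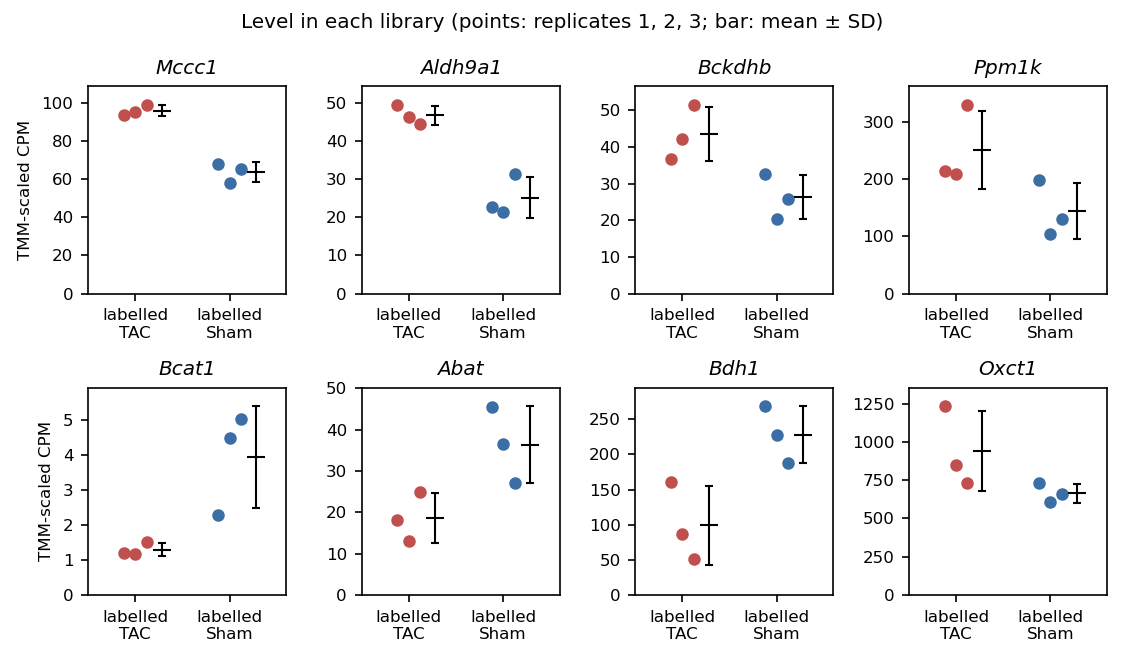
TMM-scaled CPM (vertical axes from 0) of 8 genes in each library, with points for replicates 1, 2 and 3 of each label and a bar for the mean ± SD. Mccc1, Aldh9a1, Bckdhb, Ppm1k and Oxct1 are higher in all TAC-labelled libraries, and Bcat1, Abat and Bdh1 are lower in all of them.

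Klf15 did not differ beyond its spread. It had 34.2, 32.2 and 65.8 CPM in the TAC-labelled libraries and 53.1, 35.9 and 29.9 CPM in the Sham-labelled ones (log2 difference 0.15, SE 0.32, adjusted p = 0.822). TAC 3 and Sham 1 were the high libraries, and the sign turned without TAC 3 (-0.26) and without Sham 3 (-0.01). Klf15 is under circadian and glucocorticoid control, and of 16 circadian and glucocorticoid-responsive genes 8 had a positive and 8 a negative estimate, with 1 past the threshold. That gene was Fkbp5, a co-chaperone induced by glucocorticoids, with 35.7, 47.1 and 33.9 CPM against 96.0, 158 and 75.4 CPM (2.83-fold higher in the Sham-labelled libraries, log2 difference -1.50, SE 0.28, adjusted p = 0.0488). The call of Fkbp5 was lost without any 1 of the 6 libraries. Tsc22d3, another glucocorticoid-induced gene, had a log2 difference of -0.56 with overlapping groups (adjusted p = 0.469). Some clock genes spread widely among libraries of 1 label. Arntl had 11.0, 2.95 and 29.2 CPM against 4.31, 29.0 and 8.47 CPM. Dbp had 65.7, 94.4 and 11.75 CPM against 102, 33.6 and 74.5 CPM. The part of this spread in the levels of the 30 genes was not tested.

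The libraries of a label did not contribute evenly. Library TAC 3 held the highest level of 19 of the 30 genes, and its median deviation from each gene's mean over the 6 libraries was 0.39 on the log2 scale, against 0.10 in TAC 1 and 0.07 in TAC 2. The medians were -0.01, -0.23 and -0.25 in Sham 1, 2 and 3, and the lowest level of 15 genes was in Sham 2 and of 10 in Sham 3. TAC 1 nevertheless lay above all Sham-labelled libraries in 21 genes, TAC 2 in 19 and TAC 3 in 23. Leaving out TAC 3 lowered the median log2 difference of the 30 genes from 0.40 to 0.28.

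**Figure D5:**
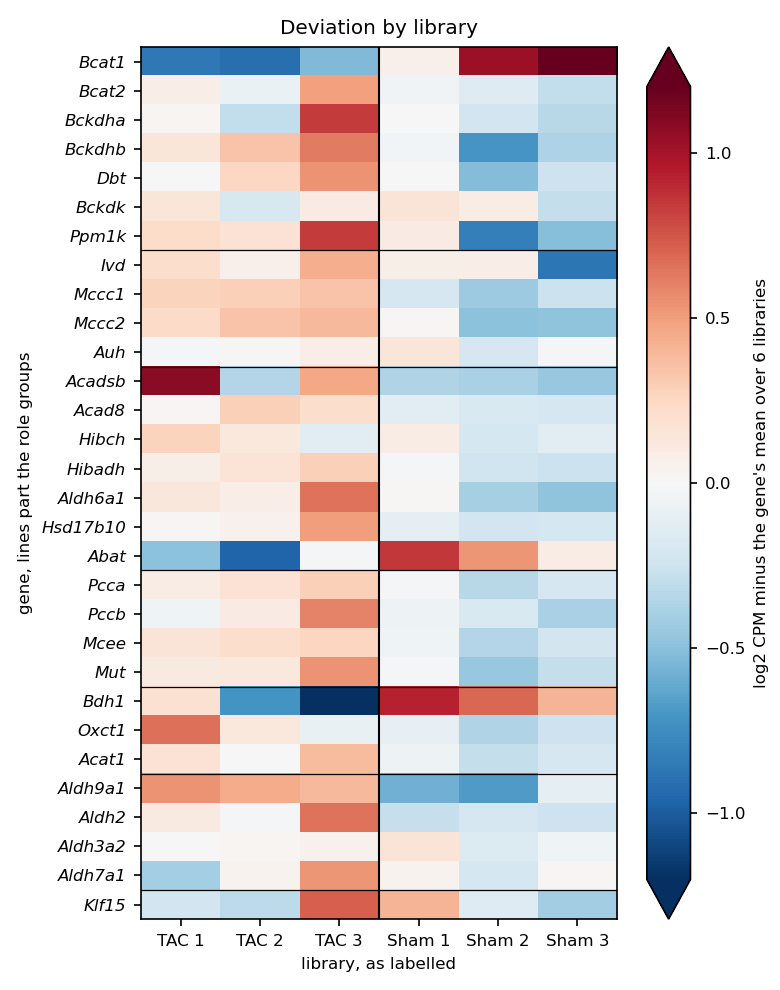
Log2 CPM of each gene in each library minus the gene's mean over the 6 libraries (colour, clipped at ± 1.2), with genes in rows by role and libraries in columns. TAC 3 is the reddest column and holds the highest level of 19 genes, and Bcat1, Abat and Bdh1 are the 3 rows in which every Sham-labelled library lies above every TAC-labelled one.

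Other genes of these pathways were read from the same fit. Of 10 enzymes of acyl-CoA oxidation and cleavage that the amino acid branches share with fat oxidation, 9 had a positive estimate and Hadh, a hydroxyacyl-CoA dehydrogenase, passed (398, 390 and 428 against 279, 199 and 235 CPM, 1.70-fold higher in the TAC-labelled libraries, adjusted p = 0.0488), with a list median of 0.53. Leaving out any 1 library but Sham 1 ended the call of Hadh. Acaa2, a thiolase of the same list, had a log2 difference of 0.94 (adjusted p = 0.0563). Of 7 genes of amino acid transport and the shared lipoamide dehydrogenase none passed, and the median was -0.08. In that list Slc7a5, a plasma membrane carrier of large neutral amino acids, had 4.98, 4.74 and 4.53 CPM against 6.70, 12.8 and 12.2 CPM, without overlap (log2 difference -1.15, SE 0.25, adjusted p = 0.0700), and Dld, the lipoamide dehydrogenase, had a log2 difference of 0.30 (adjusted p = 0.263).

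Ketone synthesis and transport gave 1 gene past the threshold among 7 tested of 10 listed. Slc16a7, a monocarboxylate carrier, had 8.18, 7.74 and 9.0 CPM in the TAC-labelled libraries and 4.74, 3.18 and 3.91 CPM in the Sham-labelled ones (2.11-fold higher in the TAC-labelled ones, adjusted p = 0.0480). Its call was kept without Sham 1 and lost without any other library. None of 12 genes of biotin and cobalamin supply passed (median 0.27), with the smallest adjusted p-values for Mmaa (log2 difference 0.36, adjusted p = 0.162) and Slc5a6 (0.54, adjusted p = 0.209). None of 9 tested of 12 other aldehyde dehydrogenases and GABA genes passed, and 4 had a positive and 5 a negative estimate. There Aldh1l2, a mitochondrial folate enzyme, had a log2 difference of 1.3 (adjusted p = 0.0690), and Aldh5a1, which takes the product of Abat onward to succinate, of 0.87 (adjusted p = 0.0700), opposite in sign to Abat.

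The authors' annotation of KEGG terms gave a wider list, used after the values had been seen. It places 27 of the 30 genes in valine, leucine and isoleucine degradation or in ketone body metabolism, all but Bckdk, Ppm1k and Klf15. Of the 30 other genes in these terms 22 were tested, 19 had a positive estimate (median 0.29) and Hadh passed.

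General mitochondrial genes and cell markers were read beside these genes. Of 10 genes taken as a measure of mitochondrial content, such as Cs (log2 difference 0.54, adjusted p = 0.0673) and Sdha (0.56, adjusted p = 0.0700), 9 had a positive estimate, none passed and the median was 0.33, beside 0.40 for the 30 genes. In 8 of these 10 every TAC-labelled library lay above every Sham-labelled one, an order that 13.4% of all genes tested had. The same order held in 7 of the 10 shared acyl-CoA enzymes and in 17 of the 30 genes. All 7 cardiomyocyte markers had a positive estimate, with a median of 0.52, and none passed. In 5 of the 7 every TAC-labelled library lay above every Sham-labelled one. Their summed level was 55103 to 70100 CPM in the TAC-labelled libraries and 40177 to 53946 in the Sham-labelled ones. Myh6 alone gave 25581 to 32800 CPM and 13744 to 23915 CPM of these sums. The 6 activated fibroblast markers all had negative estimates, with 4 past the threshold and sums of 90.6 to 178 against 1046 to 2462 CPM. All 5 macrophage markers had negative estimates as well (sums of 87.2 to 163 against 197 to 211 CPM, none past the threshold). The 6 resting fibroblast markers also had negative estimates, none past the threshold, but their sums overlapped (1092 to 1617 against 1487 to 1982 CPM). Endothelial sums overlapped (836 to 906 against 740 to 882 CPM), as did those of pericytes and smooth muscle (1470 to 1919 against 1232 to 1625), red cells (274 to 594 against 267 to 346), neutrophils (1.22 to 21.5 against 3.21 to 5.27), lymphocytes (0.509 to 1.53 against 0.217 to 1.39), Schwann cells (5.09 to 7.11 against 2.62 to 5.49) and adipocytes (18.2 to 21.1 against 20.2 to 21.6). Nearly all of the adipocyte sum was Cidea, at 18.0 to 21.6 CPM, and the other adipocyte markers reached at most 1.27 CPM (Cfd in TAC 3). The 4 atrial markers summed to 72.5 to 139 against 641 to 1897 CPM, nearly all of it Nppa. The other 3, Myl7, Sln and Myl4, overlapped between the groups and were high in TAC 3, Sham 1 and Sham 3 (Myl4 had 0.581, 6.62 and 29.1 against 27.7, 1.73 and 33.6 CPM). The part of these shifts in the differences of the 30 genes was not tested.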

How the data were processed

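The gene table deposited by the authors holds whole-number counts and FPKM values per library, per the file headers. The FPKM deposited by the authors equal each count scaled by a fixed gene length and the sum of gene counts. GRCm38 (mm10), HISAT2 2.0.4 and StringTie 1.3.0 are listed in the submitters' processing notes. What each did, the annotation, the counter and its strand setting: not given in the sources used here. No value column lacked a library, and the lncRNA table was not used here. Replicate libraries differed by more than counting noise (chi-square per gene of at least 16.6).

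All 15198 genes passing filterByExpr (minimum count 10) were fitted with edgeR 4.0.16 (quasi-likelihood, TMM scaling, no block, R 4.3.3), with Benjamini-Hochberg adjustment over all of them and a threshold of 0.05. Each SE is the absolute log2 difference over the root of its F statistic. CPM are TMM-scaled. Alternatives were DESeq2 1.42.0, limma 3.58.1 on log2(FPKM + 0.1) and log2(FPKM + 1), other scalings, no filter, no mitochondrially encoded genes, a replicate block and each library left out. Ratios were compared by exact permutation.

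Genes with values by library are those past the threshold, the 2 of smallest p per role group, those differing at least 1.5-fold without overlap, and Bcat1, Bcat2, Bckdk, Ppm1k, Bdh1, Oxct1 and Klf15. From the other pathway lists, genes past the threshold and up to 2 of smallest p are named. A further gene under this rule is not reported here. Further genes were named after their values were seen. The 30 genes and all lists were chosen with earlier results of these data known.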

Additional observations from a re-analysis of the deposited data

How the results depend on the processing

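Of the 30 genes, 25 kept the sign of their difference in all 14 alternatives. The number past the threshold toward the TAC-labelled libraries was 2, and it became 6 with DESeq2 and 0 with limma at either pseudocount, with library totals in place of TMM and in a fit with a replicate block, and 0 to 2 with 1 library left out. Toward the Sham-labelled ones it was 0, and it became 3 with DESeq2 and 1 without a filter, and 0 to 1 with 1 library left out. The median log2 difference ran from 0.28 to 0.47 with 1 library left out. Among the other pathway genes 3 passed, and 18 with DESeq2, 7 without a filter, 1 with limma at either pseudocount and under the replicate block, and 0 to 4 with 1 library left out. The cause of these changes was not tested, and fits on 5 libraries have fewer samples.

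Same-numbered libraries did not deviate together (correlations -0.15, -0.11 and -0.09 for the numbers 1, 2 and 3). Whether they share more than a number was not tested, and with the replicate block the median was 0.38. For the ratios, the exact sign-flip p over same-numbered pairs ran from 0.25, the smallest that 3 pairs allow, to 1.

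With limma on log2(FPKM + 0.1) and log2(FPKM + 1) and with library totals, the differences of Bckdk were -0.0321, -0.0292 and -0.0347, of Auh -0.0144, -0.0129 and -0.0212, and of Aldh3a2 -0.0160, -0.0142 and -0.0217. With 1 library left out Bckdk ran from -0.10 to 0.12, Auh from -0.0365 to 0.132, Aldh3a2 from -0.0244 to 0.133, Aldh7a1 from -0.12 to 0.35 and Klf15 from -0.26 to 0.41. The log2 ratio difference of Mccc1 to Mccc2 ran from -0.165 to 0.0552 and that of Pcca to Pccb from -0.146 to 0.0829. Bcat1, with 23 to 127 counts per library, rests on the fewest counts of the 30 genes, and its difference of -1.60 became -1.06 and -0.28 with limma on log2(FPKM + 0.1) and log2(FPKM + 1).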
